A study of Homo sapiens with 5 samples.

Results

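MTDH and SND1, the genes of a pair of proteins that bind each other, were followed across 5 RNA-seq libraries of RPE-1, a human cell line immortalized from retinal pigment epithelium. They were found by symbol and make up 2 of the 64252 genes counted. MTDH was chosen by its log2 fold change in these same libraries, where it was low after FAM53C knock-down, and SND1 because its product binds MTDH. Their differences between the conditions are therefore described and not tested. The cells received ON-TARGET Control #1 siRNA (siCtrl, 3 libraries, genotype given as WT) or an ON-TARGETplus pool against FAM53C (siFAM53C, 2 libraries, genotype given as FAM53C KD), each at 5 µM by the labels. All were transfected with Lipofectamine RNAiMAX and collected 48 hr later. The knock-down was thus acute, partial and by 1 pool, whose siRNA sequences were not used here. The study, which links FAM53C to the kinase DYRK1A and to entry into S phase, used these libraries to ask whether the knock-down activates transcription of CDKN1A, the gene of the cell cycle inhibitor p21.

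MTDH (metadherin, also called AEG-1 or LYRIC) is a membrane-anchored protein of the endoplasmic reticulum (ER), the nuclear envelope and the nucleus, best known for its overexpression in breast and liver cancer. It has no known enzymatic activity and acts through the proteins and RNAs that it binds. SND1 (also called Tudor-SN or p100) is a nuclease with repeated staphylococcal nuclease-like domains and a Tudor domain. It acts in transcription, splicing and RNA silencing, and MTDH binds its nuclease-like domains and stabilizes it.

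The libraries hold 19260124 to 25615415 counts on genes. The leading principal component (39.8% of the variance of log2 CPM) set siCtrl replicate 3 and siFAM53C replicate 2, whose column names both carry the number 3, apart from siCtrl replicates 1 and 2, with siFAM53C replicate 1 between them. For the members, FAM53C and the genes called, the difference is also given within the number-3 libraries (siFAM53C replicate 2 minus siCtrl replicate 3) and within the others (siFAM53C replicate 1 minus the mean of siCtrl replicates 1 and 2), in that order. Of 9 markers of retinal pigment epithelium, MITF (40.0 CPM in siCtrl) and OTX2 (16.0 CPM) were expressed, RPE65 was at 0 and RLBP1, TYR and TYRP1 had at most 3 counts in any library. The summed level of the 9 markers was 54.1 to 69.3 CPM in siCtrl and 52.4 to 63.1 CPM in siFAM53C. The keratins KRT8 (259 CPM) and KRT18 (168 CPM) were expressed, CDH1 and EPCAM had at most 4 counts in any library, and of the white blood cell markers CD3E and LYZ were at 0 and PTPRC had 2 to 20 counts. The targeted gene, FAM53C, was at 60.9, 59.7 and 57.6 CPM in siCtrl and at 14.2 and 22.3 CPM in siFAM53C. The log2 difference was -1.71 with an SE of 0.194 (quasi-likelihood test of edgeR, Benjamini-Hochberg adjusted p = 0.003625). FAM53C shares exon bases with CDC25C on the opposite strand.

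MTDH (ENSG00000147649) lies on the plus strand of chromosome 8, from 97644184 to 97730260 of GRCh38. It shares no base with another annotated gene. The siCtrl libraries held 6307, 5087 and 5386 counts of MTDH and the siFAM53C libraries 2058 and 1859. Scaled to the size of each library, this is 268, 266 and 282 CPM (counts scaled to a fixed total per library) in siCtrl and 77.8 and 78.9 CPM in siFAM53C. Both siFAM53C libraries were far below every siCtrl library, and the libraries of a condition lay close together, at 272 ± 8.82 CPM (SD, n = 3) and 78.3 ± 0.788 CPM (SD, n = 2). The fitted log2 difference was -1.796 (SE 0.105), which leaves 28.8% of the siCtrl level. In these bulk samples, fewer cells that express a gene and less of its RNA per cell cannot be told apart.

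The MTDH difference was similar in both kinds of library. It was -1.84 on the log2 scale for siFAM53C replicate 2 against siCtrl replicate 3, and -1.78 for siFAM53C replicate 1 against siCtrl replicates 1 and 2. FAM53C itself differed more between these pairs (-1.37 and -2.08). The siFAM53C libraries, at 14.2 and 22.3 CPM of FAM53C, had 77.8 and 78.9 CPM of MTDH. Whether the MTDH level follows that of FAM53C was not tested. Among 9301 genes tested with a mean of at least 10 CPM, MTDH was number 39 from the lowest log2 fold change. Its neighbours in that order, ITGB5 (-1.797) and TMBIM6 (-1.787), differed from it by less than its SE. This order describes the values that chose MTDH.

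SND1 (ENSG00000197157) lies on the plus strand of chromosome 7, from 127652194 to 128092609 of GRCh38. The siCtrl libraries held 6597, 5105 and 4716 counts of SND1 and the siFAM53C libraries 7233 and 6262. In CPM this is 280, 267 and 247 in siCtrl and 273 and 266 in siFAM53C. The siFAM53C libraries lay within the range of the siCtrl libraries, at 270 ± 5.38 CPM (SD, n = 2) beside 265 ± 16.6 CPM (SD, n = 3). The fitted log2 difference of 0.026 was smaller than its SE (0.107), and the differences within the library sets were 0.105 and -0.001. The SND1 conditions overlapped, and those of MTDH did not. Over all 15341 genes tested, both siFAM53C libraries were below every siCtrl library in 18.8% and above every one in 16.7%.

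The ratio of the members within a library needs no scaling factor. For each 100 counts of SND1 there were 95.6, 99.6 and 114 counts of MTDH in the siCtrl libraries. There were 28.5 and 29.7 in the siFAM53C libraries, both below every siCtrl library. Per length of exon, which is 7876 bases for MTDH and 6486 for SND1, the siCtrl levels were 34.5 CPM per kb for MTDH and 40.8 CPM per kb for SND1. By this scale MTDH was number 1194 from the highest of 14837 genes in siCtrl and number 4149 in siFAM53C, where it had 9.95 CPM per kb. SND1 was number 960 in siCtrl and number 863 in siFAM53C. A pair of transcripts that were near each other in level in siCtrl was far apart in siFAM53C. This restates the difference by which MTDH was chosen, beside an SND1 level that overlapped between the conditions.

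**Figure D1:**
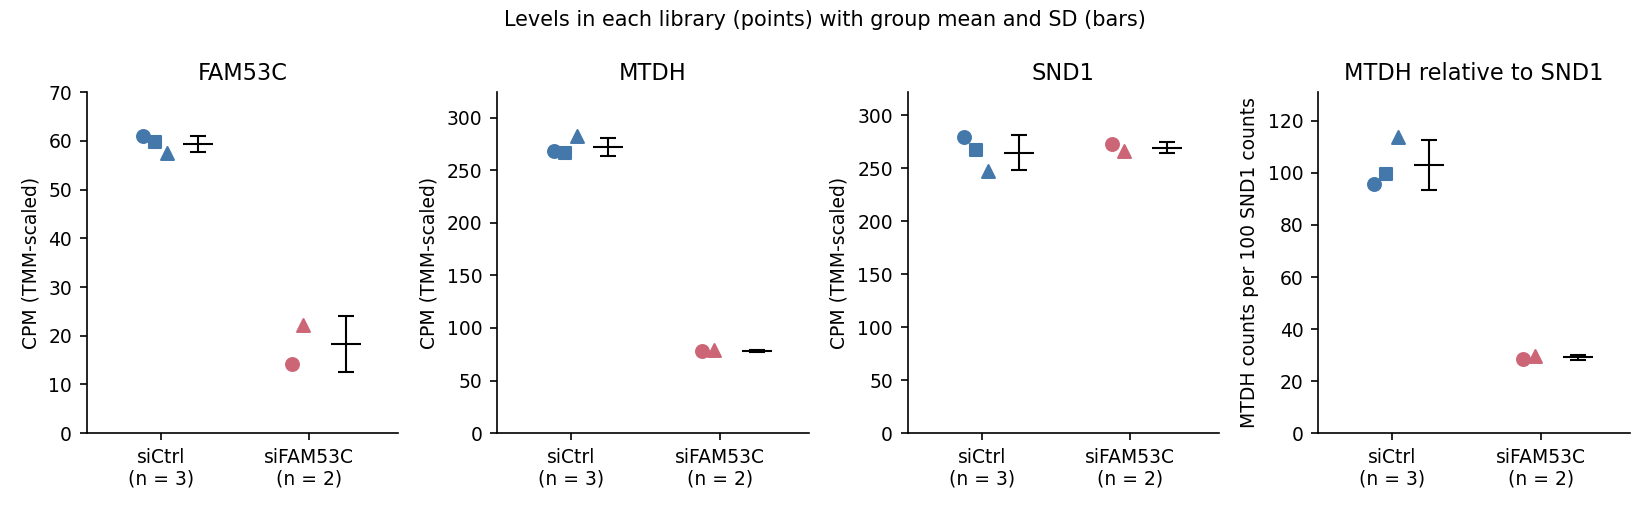
CPM of FAM53C, MTDH and SND1, and MTDH counts per 100 SND1 counts, in each library (points) with the mean and SD of each condition (bars); circles, squares and triangles stand for the numbers 1, 2 and 3 in the column names. MTDH is at 266 to 282 CPM in siCtrl and at 77.8 and 78.9 CPM in siFAM53C, whereas SND1 overlaps between the conditions.

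Other annotated genes could take reads from the members. MTDH has 5 pseudogenes in the annotation, of which MTDHP1 had 0 to 3 counts in a library and MTDHP2, MTDHP3, MTDHP4 and MTDHP5 had 0. A transcript inside SND1, SND1-IT1, shares 480 exon bases with it on the same strand and had 0 counts, as did SND1-DT, which is annotated next to it. LRRC4, a synaptic adhesion gene on the opposite strand within SND1, shares 0 exon bases with it.

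The genes around each member were counted to see whether the difference extended along the chromosome. Of 31 annotated genes within 1 Mb of MTDH, 9 were tested. The edgeR test, adjusted over all genes, called 0 lower and 0 higher, where 3.47% of all 15341 genes tested were lower and 0.489% higher. With no adjustment of p, 1 was lower (10.5% of all genes were, and 6.61% higher), and DESeq2 called 1 lower (6.98% of its 12749 genes, with 2.02% higher), in both cases STK3 (MST2), a kinase of the Hippo pathway. STK3 was at 20.1, 21.7 and 26.1 CPM in siCtrl and at 11.6 and 14.2 CPM in siFAM53C, a log2 difference of -0.81 with an SE of 0.183 (edgeR adjusted p = 0.05544), and it was called without siCtrl replicate 3 (-0.69, edgeR adjusted p = 0.03922). The lowest value among the neighbours was that of MATN2, the gene of an extracellular matrix protein 139 kb away. It had 11.5, 13.2 and 30.7 CPM in siCtrl and 4.12 and 12.5 CPM in siFAM53C, so that the conditions overlapped (-1.15, SE 0.666, edgeR adjusted p = 0.4743), although it was lower within both library sets (-1.288 and -1.562). With a term for the number-3 libraries, MATN2 (-1.447, edgeR adjusted p = 1.596e-05) and STK3 (-0.864, edgeR adjusted p = 0.0004523) were called lower, where 10.7% of all genes were lower and 6.76% higher. The nearest tested gene, LAPTM4B, which encodes a lysosomal membrane protein, starts 44.8 kb away. It had 133, 155 and 116 CPM in siCtrl and 122 and 97.3 CPM in siFAM53C, so that the conditions overlapped (log2 difference -0.30, SE 0.156). On the other side the nearest tested gene was CPQ, a peptidase gene 495 kb away (0.25, edgeR adjusted p = 0.5467). The median of the 9 genes was -0.30, beside 0.016 over all genes tested.

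Of 69 annotated genes within 1 Mb of SND1, 28 were tested, and edgeR called 0 lower and 0 higher (3.47% and 0.489% of all genes). For p under 0.05 with no adjustment there were 1 and 1, beside 10.5% and 6.61% of all genes. DESeq2 called 1 of them lower (6.98% of its genes, with 2.02% higher), METTL2B, a tRNA methyltransferase gene. METTL2B had a log2 difference of -0.58 and an SE of 0.127 (edgeR adjusted p = 0.05137). It was called by edgeR without siCtrl replicate 3 (-0.58, edgeR adjusted p = 0.02517). The nearest tested genes outside SND1 were GCC1 (0.19, edgeR adjusted p = 0.5135) on one side and RBM28 (0.26, edgeR adjusted p = 0.2488) on the other, and LRRC4 (-0.875) had a mean of only 1.53 CPM in siCtrl. Their median was 0.18.

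**Figure D2:**
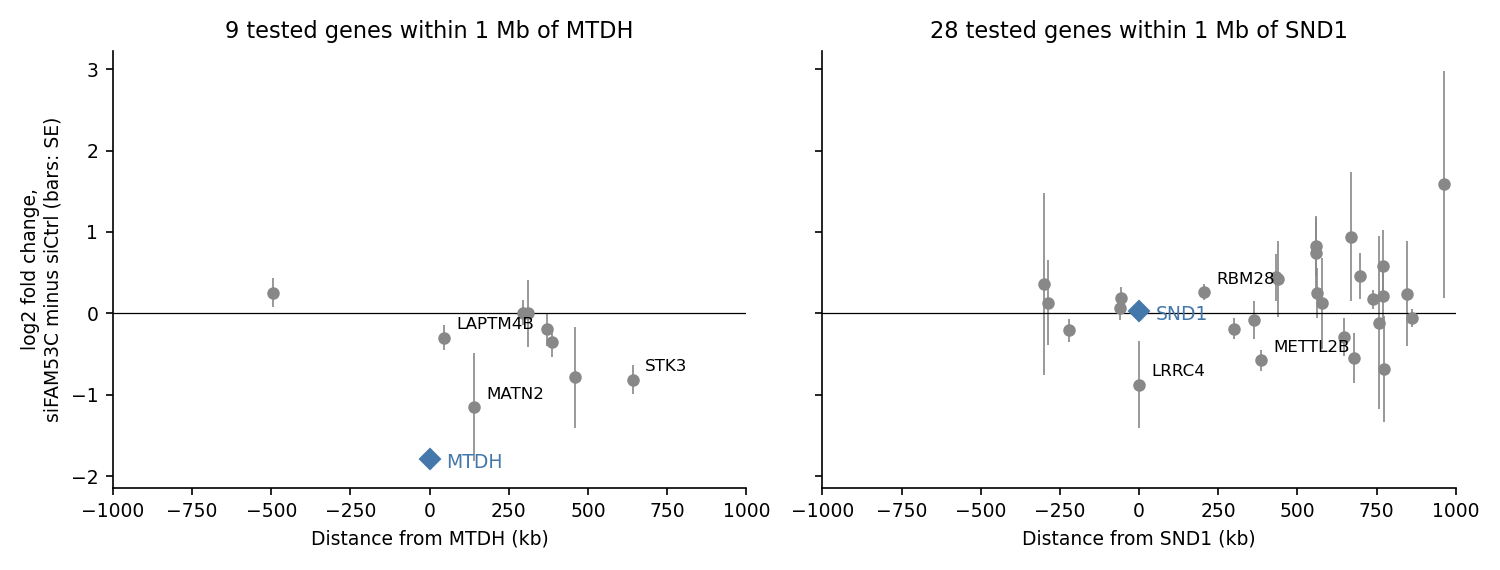
Log2 fold change (siFAM53C minus siCtrl, with SE) of the tested genes within 1 Mb, by distance in kb from MTDH or SND1 (diamonds at 0). MTDH, at -1.796, lies below all 9 of its neighbours, and SND1, at 0.026, lies among its own. MTDH was chosen by this low value, so its place below its neighbours is a description only.

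The proteins that MTDH is described to bind were examined next, as the wider set of molecules around the pair. Of 9 such genes, 8 were tested, since ZBTB16 was at 0. Of these edgeR called 0, where 3.47% of all genes were lower and 0.489% higher. DESeq2 also called 0, beside 6.98% and 2.02% of all its genes. Taking p under 0.05 with no adjustment, 3 were lower and 0 higher, beside 10.5% and 6.61% of all genes. In the same 3 genes, and in 18.8% of all genes tested, both siFAM53C libraries were below every siCtrl library; the reverse held for 0 of the 8, and for 16.7% of all genes. These 3 were RXRA, a partner of nuclear receptors (log2 fold change -0.48), BCCIP, which binds BRCA2 and p21 (-0.43), and AGO2, the slicing Argonaute (-0.29). Without siCtrl replicate 3, RXRA (-0.59, edgeR adjusted p = 0.0244) and BCCIP (-0.55, edgeR adjusted p = 0.01165) were called. PABPC1, the cytoplasmic poly(A)-binding protein (0.058), and the transcription factor YY1 (-0.029) differed by less than their standard errors. The median of the 8 was 0.015, close to that of all genes.

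Among the genes of proteins that SND1 is described to bind, GTF2E1 and AGO1 fell and POLR2A rose. Of 21 genes, 19 were tested, and edgeR called 2 lower and 1 higher, where 3.47% and 0.489% of all genes were. With no adjustment of p, 3 were lower and 4 higher, beside 10.5% and 6.61% of all genes. The median of the 19 was -0.042. GTF2E1, the large subunit of the general transcription factor TFIIE, was at 22.0, 20.7 and 23.1 CPM in siCtrl and at 7.48 and 8.40 CPM in siFAM53C (log2 difference -1.465, SE 0.163, edgeR adjusted p = 0.003179). The gene of the other subunit, GTF2E2, had a log2 difference of -0.072 and overlapped between the conditions. POLR2A, the largest subunit of RNA polymerase II, rose from 320, 336 and 397 CPM to 513 and 541 CPM (0.59, SE 0.127, edgeR adjusted p = 0.04932). The differences within the library sets were -1.449 and -1.501 for GTF2E1 and 0.446 and 0.647 for POLR2A. POLR2A was just past the threshold, and not past it without siCtrl replicate 1, siCtrl replicate 2 or either siFAM53C library (edgeR adjusted p = 0.198 to 0.286), nor without robust dispersion estimates (edgeR adjusted p = 0.05655). E2F1, the S phase transcription factor, was at 66.5, 58.7 and 65.4 CPM in siCtrl and 71.6 and 83.0 CPM in siFAM53C, and was not called (0.28, edgeR adjusted p = 0.276).

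AGO1, an Argonaute protein of the RNA-induced silencing complex to which SND1 has been assigned, fell. It was at 57.9, 55.9 and 57.6 CPM in siCtrl and at 27.4 and 28.1 CPM in siFAM53C, with no overlap (log2 difference -1.04, SE 0.108, edgeR adjusted p = 0.002359), and the differences within the library sets were -1.033 and -1.053. AGO2 had 47.4 ± 2.21 CPM (SD, n = 3) in siCtrl and 38.8 ± 0.322 CPM (SD, n = 2) in siFAM53C, and was not called (edgeR adjusted p = 0.2317). The abundant partners DHX9, an RNA helicase (-0.074), and G3BP1, a stress granule protein (-0.064), differed by less than their standard errors, as did ADAR, which edits double-stranded RNA. The calls of AGO1 and GTF2E1 remained without any 1 library. STAT5A was not tested, and PRPF8, a core spliceosome protein that every cell uses, was listed at 0 in 3 libraries and had 1 count in each of the other two, so that counts near 0 in this table were not read as absence.

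The next list held genes described in other cells as raised by MTDH or SND1. Of 22 such genes, 19 were tested and 1 was called lower, CD274, which encodes the immune checkpoint ligand PD-L1, and 0 were called higher, beside 3.47% and 0.489% of all genes. With no adjustment of p, 4 were lower and 1 higher (10.5% and 6.61% of all genes), and DESeq2 called 2 lower (6.98% of all). CD274 was at 28.8, 25.6 and 32.2 CPM in siCtrl and at 14.6 and 14.1 CPM in siFAM53C (log2 difference -1.01, SE 0.155, edgeR adjusted p = 0.01314). The differences within the library sets were -1.184 and -0.897. Its call was lost when siCtrl replicate 1 or either siFAM53C library was left out (edgeR adjusted p = 0.0749 to 0.107). The cyclin gene CCND1 (0.061) and HIF1A (-0.38), the hypoxia factor, were not called. With a term for the number-3 libraries HIF1A was called lower (-0.427, edgeR adjusted p = 0.0009852), and CCND1 was not called (0.112, edgeR adjusted p = 0.3403). The median of the 19 was -0.29, and a term for the libraries with the number 3 gave 9 lower and 1 higher, where it gave 10.7% and 6.76% of all genes.

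Of 10 genes described as lowered by MTDH or SND1, 6 were tested, 1 was called lower and 0 higher, beside 3.47% and 0.489% of all genes. There were 2 and 1 with no adjustment of p (10.5% and 6.61% of all genes), and 2 and 1 by DESeq2 (6.98% and 2.02%). The lower gene was TGFBR2, a receptor of TGF-beta, which was at 237, 255 and 215 CPM in siCtrl and at 138 and 129 CPM in siFAM53C (log2 difference -0.82, SE 0.116, edgeR adjusted p = 0.009589). The differences within the library sets were -0.733 and -0.833. It was called with all libraries and without siCtrl replicate 3, but not without any other library (edgeR adjusted p = 0.05983 to 0.1075). CDKN1A, which encodes p21, was at 354, 331 and 182 CPM in siCtrl and at 452 and 240 CPM in siFAM53C. It was not called (0.26, SE 0.39, edgeR adjusted p = 0.8146, DESeq2 adjusted p = 0.8594), and the gene counted as higher above was another. Within the library sets it was higher by 0.402 and 0.401, and with a term for the number-3 libraries it was called higher (0.401, edgeR adjusted p = 0.001623). With the block by title numbers it was -0.054 (edgeR adjusted p = 0.9206), and without siFAM53C replicate 1 it was -0.273 (edgeR adjusted p = 0.852). From RNA-seq of this knock-down, the study reports CDKN1A as the most strongly raised of its p53 target genes. This differs from the main comparison here, in which CDKN1A was not called. The study's methods describe collection in duplicate, whereas 3 siCtrl libraries were used here. TAP1 and TAP2, antigen peptide transporters whose transcripts the pair is described to target, had at most 1 count in a library.

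MTDH was also set beside other proteins of its compartment. Of 4 genes of ER membrane proteins that bind ribosomes or RNA or shape ER sheets, all 4 were tested, and 2 were called lower and 0 higher (the same 2 and 0 with no adjustment of p). Over all genes these shares were 3.47% and 0.489%, and 10.5% and 6.61% with no adjustment. RRBP1, the ribosome-binding protein of the rough ER, was at 482, 410 and 503 CPM in siCtrl and at 177 and 214 CPM in siFAM53C (log2 difference -1.25, SE 0.144, edgeR adjusted p = 0.003639), and the call remained without any 1 library. LRRC59 fell from 296, 304 and 306 CPM to 211 and 214 CPM (-0.51, SE 0.10, edgeR adjusted p = 0.03456), and its call was lost when siCtrl replicate 1 or 2 or either siFAM53C library was left out (edgeR adjusted p = 0.129 to 0.27). The differences within the library sets were -1.232 and -1.325 for RRBP1 and -0.517 and -0.506 for LRRC59. KTN1 (-0.25) and CKAP4 (-0.26) were not called. In all 4 genes both siFAM53C libraries were below every siCtrl library, as in 18.8% of all genes tested, and their median was -0.38.

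SND1 was likewise set beside other Tudor domain proteins, most of which act in the germline. Of 15 genes, 5 were tested (TDRD3, TDRD7, TDRKH, AKAP1 and SMNDC1). By edgeR 0 were called, 0 at an unadjusted p under 0.05 and 0 by DESeq2, and all 5 overlapped between the conditions. Over all genes, edgeR called 3.47% lower and 0.489% higher, and 10.5% and 6.61% passed with no adjustment. DESeq2 called 6.98% and 2.02% of its genes. In 18.8% of all genes the siFAM53C libraries lay below every siCtrl library, and in 16.7% above. The log2 fold changes of the 5 ran from -0.28 (AKAP1) to 0.22 (TDRKH). SMN1 was not tested. It had 10, 2 and 4 counts in siCtrl and 3 and 75 in siFAM53C, which cannot be separated from those of its near-identical copy.

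**Figure D3:**
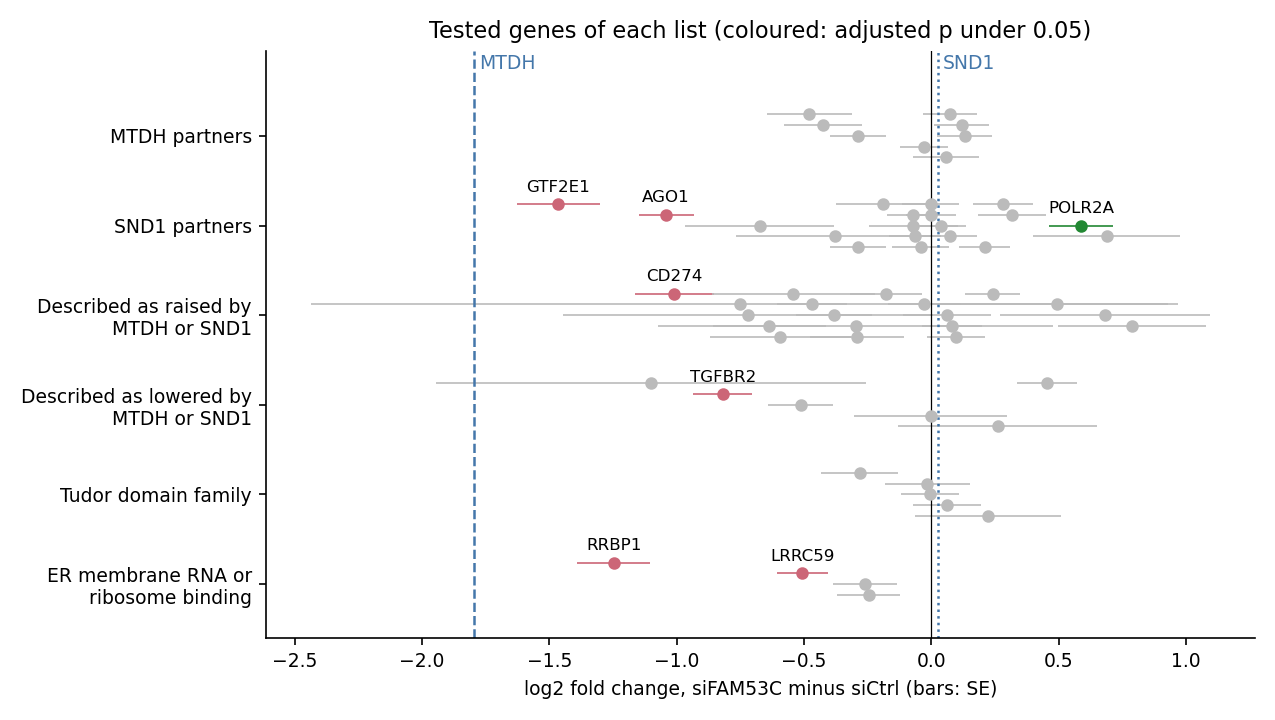
Log2 fold change (siFAM53C minus siCtrl, with SE) of each tested gene of 6 lists. Genes called lower (red) or higher (green) by edgeR are named, and vertical lines mark 0, MTDH (-1.796) and SND1 (0.026). No tested gene of the lists has a value as low as that of MTDH. MTDH was chosen by this value, which is number 39 from the lowest among 9301 genes of at least 10 CPM.

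The members and lists were searched for a heptamer, GACAAGA, that an earlier analysis of these same libraries had picked out in 3' UTRs of genes with lower expression in siFAM53C. The search was on the transcript strand of GENCODE transcripts. Of the tested genes with an annotated 3' UTR, 1400 held it and 10675 did not, with median log2 differences of -0.177 and 0.02, and 15.1% and 2.92% were called lower. Their 3' UTRs also differed in length (medians of 3343.5 and 1386 bases), and the part of length in this was not tested. It occurs in the longest 3' UTR of 10.3% of 19248 genes, and its reverse complement in 12.7%. The longest 3' UTR of MTDH, at 5590 bases against a median of 1228.5 over these genes, holds 0 matches, and the coding sequence of its longest transcript holds 2. SND1 holds 0 matches in its 3' UTR of 535 bases and 0 in its coding sequence. Among the 38 genes of at least 10 CPM with a lower log2 fold change than MTDH, 32 have an annotated 3' UTR and 23 of these hold the heptamer. What the coding matches of MTDH contribute was not tested. Of the 9 tested neighbours of MTDH, 4 held the heptamer in the longest 3' UTR, STK3 and MATN2 among them. Of the 28 tested neighbours of SND1, 1 held it there, METTL2B. What the heptamer contributes to the levels of these neighbours was not tested.

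Of 58 tested genes of the 6 lists with an annotated 3' UTR, 5 held the heptamer there. Of these, 4 were among the 6 genes called lower: AGO1, GTF2E1, CD274 and TGFBR2. RRBP1 and LRRC59 were called lower without it. Over all tested genes with an annotated 3' UTR, 212 genes with the heptamer and 312 without it were called lower. The heptamer was found in earlier results of the same comparison, so that these counts are a description. The sites of AGO1, GTF2E1, CD274 and TGFBR2 are shown. Each is 30 bases of the 3' UTR on the transcript strand in GRCh38, with the heptamer in capitals.
AGO1, first site (chr1:35922257-35922286, plus strand): ctttgggcaatGACAAGAaatgagttctta
AGO1, second site (chr1:35927291-35927320, plus strand): tcatttcatatGACAAGAaatcctaattta
GTF2E1 (chr3:120782476-120782505, plus strand): catggacgtaaGACAAGAagtctctgtgaa
CD274 (chr9:5467926-5467955, plus strand): gggctgagcgtGACAAGAggaaggaatggg
TGFBR2 (chr3:30693333-30693362, plus strand): gtgtccacaagGACAAGAacaaagtatgag

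The genes whose levels over the 5 libraries were most like those of MTDH were found by the root mean square difference of log2 CPM, each centred on its mean, among 9300 other genes with a mean of at least 10 CPM. They were PODXL, a sialomucin (0.048), ME2, the mitochondrial malic enzyme (0.077), THAP5, a zinc finger protein (0.095), TMBIM6, an ER membrane protein that restrains cell death (0.096), and RNGTT, the mRNA capping enzyme (0.106). PODXL was at 97.1 CPM in siCtrl and 28.2 CPM in siFAM53C, and TMBIM6, the most abundant of the 5, at 858 and 249 CPM. ME2, TMBIM6 and RNGTT hold the heptamer in their 3' UTR, and PODXL and THAP5, like MTDH, do not. For SND1 the nearest were JOSD1 (0.018), SCRN3 (0.019), APP (0.019), KIAA1191 (0.020) and THAP4 (0.020), each with a log2 fold change between 0.005 and 0.035. The 5 libraries cannot separate many genes by such a measure, and it served only to name them.

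**Figure D4:**
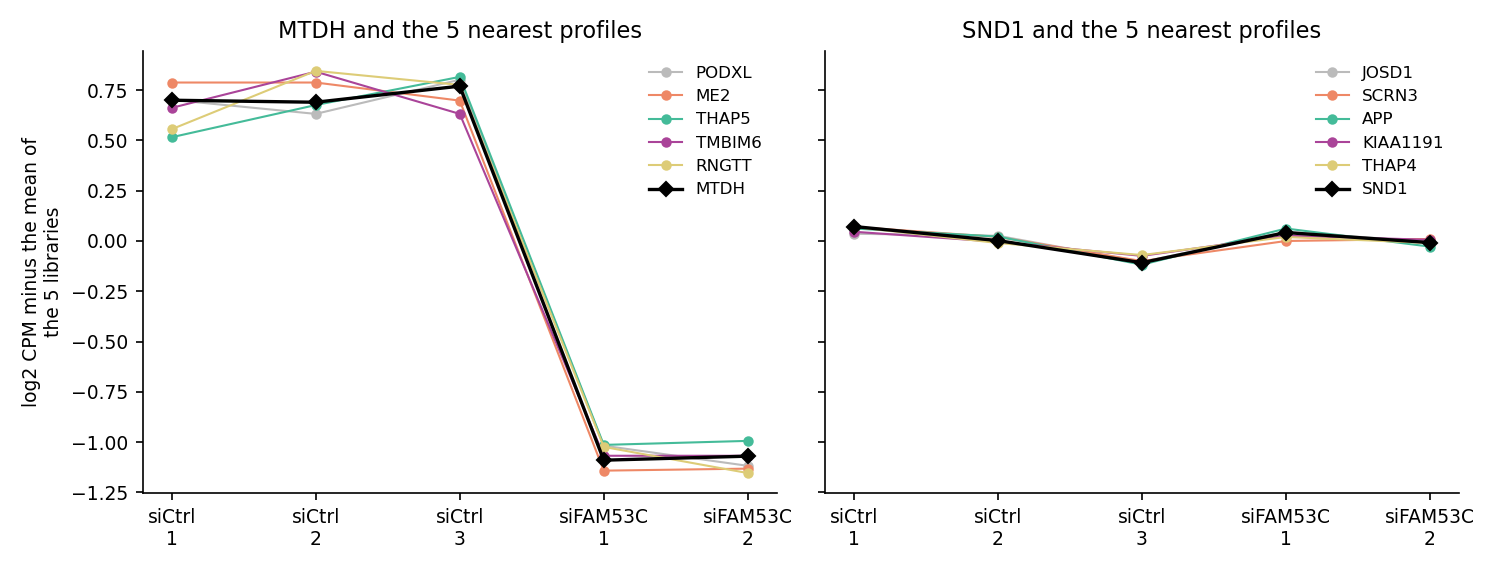
Log2 CPM in each library minus the mean of the 5 libraries for MTDH (left) and SND1 (right), in black, with the 5 genes nearest to each. The profiles on the left step down between siCtrl and siFAM53C, and those on the right stay close to 0; the lines only join the values of a gene.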

How the data were processed

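Paired RNA-seq reads of 3 siCtrl and 2 siFAM53C libraries were trimmed by the authors with CutAdapt 2.10 (a version also in the submitters' processing notes), aligned with HISAT2 to UCSC hg38 as reverse-stranded and counted per gene with featureCounts. The authors deposited raw counts, not normalized. The annotation release and the strand setting of the counting are not given in the sources used here; symbols, positions, exon lengths and 3' UTRs are from GENCODE release 44 on GRCh38, which matched 56105 of 64252 gene identifiers. Groups come from the sample titles.

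The counts were compared with the quasi-likelihood test of edgeR 4.0.16 under R 4.3.3, with condition as the single term, on the 15341 genes kept by filterByExpr (at least 10 counts, total at least 15), with TMM factors and a threshold of 0.05 on Benjamini-Hochberg adjusted p-values. Robust dispersion estimates were used; this option was chosen after both settings had been run, because it gives the same counts of calls as the earlier results. CPM use TMM-scaled totals, and log2 CPM a prior count of 2. The totals of 19260124 to 25615415 counts limit the precision for low genes. DESeq2 1.42.0 was an alternative, as were other size factors, no filter, a replicate block, a term for the libraries with the number 3, and each library left out. The scripts were tested on simulated data. The labels do not say that libraries of a condition come from separate cultures, so p-values measure the spread between these libraries, which may be technical.

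The members and lists were chosen with earlier results of these data known. Lists of partners and targets were written from general knowledge. Genes were named by a rule: the members, FAM53C, every gene of a list that was called (at most the 10 of smallest p) and its 3 most abundant ones, the nearest tested neighbours and any called, the 5 nearest profiles to each member, and list genes whose lack of counts or of change is described. STK3, MATN2, METTL2B, RXRA, AGO2, E2F1 and the genes beside MTDH in the order of fold changes were named after their values were seen. Markers of cell types were checked as levels only. A few genes of the lists are not reported here.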

Additional observations from a re-analysis of the deposited data

How the results depend on the processing

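The MTDH difference kept its direction in every alternative and moved by more than the spread between libraries only with total counts (-1.725); left-out libraries gave -1.811 to -1.761. The SND1 difference ran from -0.021 with the replicate block to 0.098 with total counts, moved by less than the spread between libraries, and has no fixed sign. Genes called over the whole table numbered 608, and 1336 with no filter, 1147 with DESeq2, 1211 with the replicate block by titles and 2673 with the term for the libraries with the number 3; left-out libraries gave 167 to 1300. Of these, 533 and 75 were lower and higher, 961 and 375 with no filter, 890 and 257 with DESeq2, 856 and 355 with the block, 1636 and 1037 with the number-3 term and 415 and 121 with total counts. In the order no filter, DESeq2, replicate block and number-3 term, the MTDH partners gave 2, 0, 2 and 2 calls against 0, the genes described as raised 3, 2, 2 and 10 against 1, those described as lowered 3, 3, 2 and 4 against 1, the MTDH neighbours 1, 1, 1 and 2 and the SND1 neighbours 2, 1, 1 and 5 against 0. The Tudor family gave 1 with no filter, and the ER proteins 1 with total counts. Left-out libraries gave 0 to 2 calls for the MTDH partners, the raised and the lowered genes and the SND1 neighbours, 0 to 1 for the MTDH neighbours and 1 to 2 for the ER proteins. The cause was not tested. Where 1 siFAM53C library remained, it was assumed to vary like the siCtrl libraries. Signs near 0 turned for YY1 (0.042), G3BP1 (0.007) and SMNDC1 (0.064) with total counts, for CCND1 (-0.054), CDKN1A (-0.054) and SMNDC1 (0.046) with the replicate block, and across left-out libraries for PABPC1 (-0.055 to 0.156), CCND1 (-0.194 to 0.27), CDKN1A (-0.273 to 0.642), TDRD7 (-0.003 to 0.116) and SMNDC1 (-0.098 to 0.071). Only 2 title numbers are shared, and deviations of same-numbered libraries correlated at 0.169 and -0.285. Without robust dispersion estimates, the setting not adopted after both had been seen, 555 genes (493 lower, 62 higher) were called and POLR2A was not.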
